A study of Mus musculus with 9 samples.

Results

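The Pax genes encode transcription factors that bind DNA through a paired domain and, in several members, also through a homeodomain. Pax3 and its paralogue Pax7 mark the dermomyotome, the epithelial dorsal somite that supplies the progenitors of trunk and limb muscle, and they are also active in the dorsal neural tube and neural crest. Pax1 and Pax9 are paralogues of the sclerotome, the ventral somite that forms vertebrae and ribs, whereas Pax6 is known for the eye and the neural tube and Pax8 for the kidney and the thyroid.

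The members described here are the 6 genes Pax1, Pax3, Pax6, Pax7, Pax8 and Pax9, of 18193 genes read. They were found as every probe set that the platform annotation assigns to 1 of these genes alone, which gave 17 of 45037 probe sets tested. Pax6 had 5 of them, Pax3 and Pax9 had 3 each, and Pax1, Pax7 and Pax8 had 2 each. Other members of the family were not analysed here.

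Transcripts were measured in 9 samples of sorted cells. The tissue was the hypaxial dermomyotome, taken from somites between the limb buds of mouse embryos on embryonic day 9.5, with 3 samples in each of 3 groups. The first group was GFP-positive cells of Pax3PAX3-FKHR/GFP embryos, called PAX3-FKHR/GFP cells here, in which 1 Pax3 allele carries GFP and the other, a floxed allele activated by a ubiquitous PGK-Cre transgene, produces PAX3-FKHR with nuclear lacZ. PAX3-FKHR is the oncoprotein of alveolar rhabdomyosarcoma and joins the DNA-binding part of PAX3 to the activation domain of the forkhead factor FKHR, so neither allele of these embryos makes normal mouse Pax3. The second group was GFP-positive cells of Pax3GFP/+ embryos, called GFP/+ cells, with GFP on 1 allele and a normal Pax3 gene on the other. Whether they also carried PGK-Cre is not given in the sources used here. The third was GFP-negative cells of the same region, called GFP- cells, whose Pax3 genotype the labels do not give. The study's statistical methods place them in Pax3GFP/+ embryos, whereas its list of hybridised groups names wild-type embryos. The Pax3 lines had a C57BL6/DBA2 background, tissue of several embryos went into each sample, and sorting gates were set on wild-type embryos. The study's methods allow that neural crest cells positive for Pax3 were among the dissected cells.

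Values are log2 intensities after RMA, which makes the distributions of all arrays alike. Medians per array were 4.63 to 4.68, and the correlation over probe sets between replicate arrays was 0.996 to 0.998. A probe set was called at an adjusted p under 0.05 with a log2 difference of at least 0.5 (1.41-fold), and errors after ± are standard errors of the fit unless named SD. Of the 17 probe sets, 4 were above the array median on all 9 arrays, 7 on some arrays and 6 on none. The 6 were 3 of Pax6, both of Pax8 and 1 of Pax9. A filter that kept probe sets above a log2 value of 5 on at least 3 arrays was passed by 11 of the 17 in PAX3-FKHR/GFP against GFP/+ cells, by 11 against GFP- cells and by 10 in GFP/+ against GFP- cells. The main results use no such filter. The probe sets are not samples, and those of 1 gene report the same transcripts or parts of them.

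The sequences just before a transcription start are shown for genes outside the Pax3 locus with a called difference between PAX3-FKHR/GFP and GFP/+ cells. Pax7 was called higher in 1 of its 2 probe sets, Pax1 lower in 1 of its 2 and Pax6 lower in 1 of its 5. The sequences come from RefSeq on the GRCm38.p6 build, where 5 of the 6 genes are listed and Pax3 is not. Each is 250 bases long, and capitals mark GTCAC, the core recognised by paired domains, and ATTA, the core recognised by homeodomains, on either strand. Pax6 has 2 listed starts, the first of which is the start of the gene. The windows of Pax1 and Pax7 lie inside the gene positions given below, so their listed starts are not the outermost ends of these genes.
Pax7, chr4:139832969-139833218, minus strand: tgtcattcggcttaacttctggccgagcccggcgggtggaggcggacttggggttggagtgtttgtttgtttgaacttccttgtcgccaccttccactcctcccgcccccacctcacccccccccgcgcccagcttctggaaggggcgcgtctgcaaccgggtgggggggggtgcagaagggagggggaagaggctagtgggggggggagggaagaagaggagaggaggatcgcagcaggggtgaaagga
Pax1, chr2:147364744-147364993, plus strand: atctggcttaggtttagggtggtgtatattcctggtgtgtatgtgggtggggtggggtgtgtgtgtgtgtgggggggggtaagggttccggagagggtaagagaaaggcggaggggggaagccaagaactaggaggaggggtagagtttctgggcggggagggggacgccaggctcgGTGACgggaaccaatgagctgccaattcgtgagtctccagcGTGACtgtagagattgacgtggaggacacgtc
Pax6, chr2:105668646-105668895, plus strand: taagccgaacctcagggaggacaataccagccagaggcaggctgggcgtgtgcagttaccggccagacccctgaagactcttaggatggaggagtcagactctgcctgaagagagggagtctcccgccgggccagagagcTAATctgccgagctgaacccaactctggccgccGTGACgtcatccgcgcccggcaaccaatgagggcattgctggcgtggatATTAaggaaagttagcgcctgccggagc
Pax6, chr2:105682213-105682462, plus strand: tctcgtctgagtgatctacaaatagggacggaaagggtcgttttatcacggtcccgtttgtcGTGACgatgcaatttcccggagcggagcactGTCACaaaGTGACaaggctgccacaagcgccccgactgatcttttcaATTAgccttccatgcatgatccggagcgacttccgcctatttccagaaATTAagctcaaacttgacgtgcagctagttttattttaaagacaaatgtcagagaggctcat

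The Pax7 window held 0 matches to either core. The Pax1 window held 2 matches to GTCAC, which begin 73 and 32 bases before the start, and 0 to ATTA. The first Pax6 window held 1 match to GTCAC and 2 to ATTA, and the second held 3 and 2. The windows of Pax8 and Pax9, which are not printed, held 0 matches to GTCAC, and to ATTA there were 0 matches in Pax8 and 1 in Pax9. GTCAC is present in 39.8% and ATTA in 54.9% of 32851 windows of the same length. The paired homeodomain cores TAATNNATTA and TAATNNNATTA, each of which contains ATTA on both strands, were present in 0.384% and 0.463% of all windows and in 0 of the windows of these 5 genes. A match describes letters only and is no evidence of binding.

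The first comparison asked how the Pax genes differ when PAX3-FKHR takes the place of the normal Pax3 allele. By its brightest probe set Pax7 rose 1.59-fold in PAX3-FKHR/GFP cells, while Pax3 and Pax1 fell to 53.2% and 67.4% of their GFP/+ level. For Pax6 1 of 5 probe sets fell, to 59.7%. Pax8 and Pax9 were not called. Of the 17 probe sets 1 was called higher and 5 lower, where 0.884% of all probe sets tested were called higher and 0.473% lower. All 3 probe sets of Pax3 were among the 5. The study treats Pax3 as a control, since these embryos do not transcribe the mouse gene, so its calls are no separate result. The 5 lower calls became 3 when replicate 2 of the PAX3-FKHR/GFP samples was left out, and likewise for replicate 2 or 3 of the GFP/+ samples. By gene, read from the brightest probe set, 1 of 6 rose and 3 fell, Pax3 among them, against 1.31% and 0.715% of all genes. With the mean over the probe sets of each gene 1 rose and 1 fell, since Pax6 (-0.19, adjusted p = 0.301) and Pax1 (-0.47, under the fold limit) were then not called. These are bulk samples, in which fewer cells of a type and less RNA per cell cannot be told apart.

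**Figure D1:**
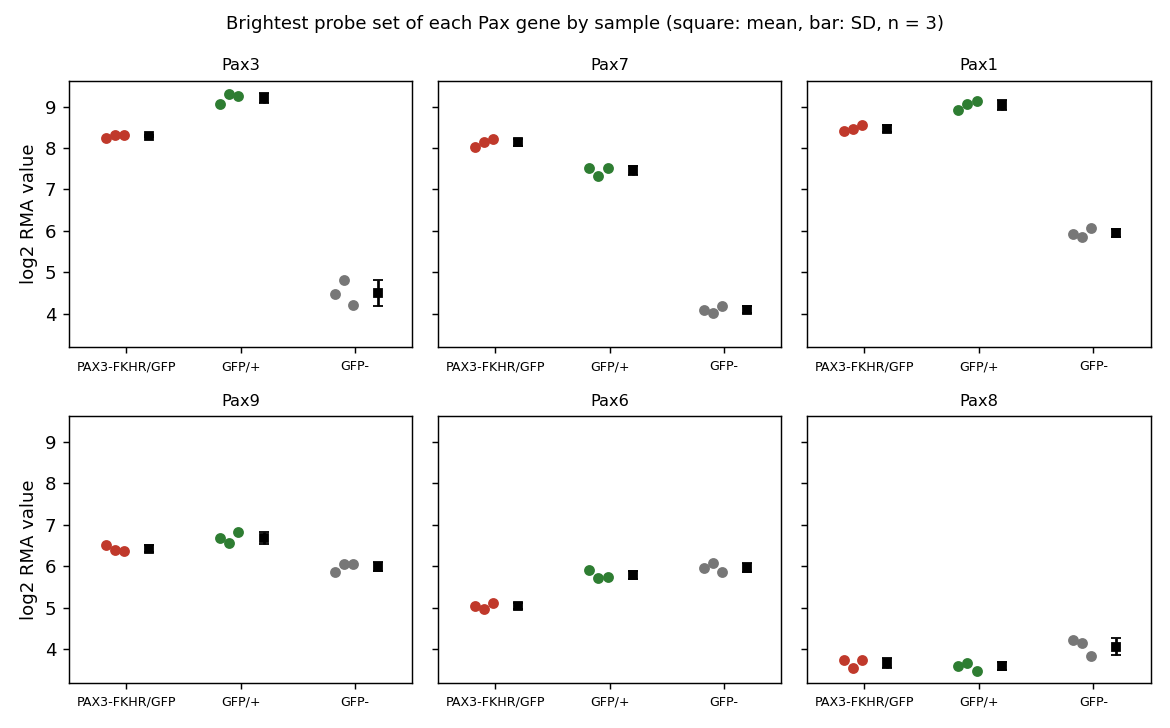
Log2 RMA value (vertical axis) of the brightest probe set of each Pax gene in the 9 samples, as points by group, followed by a square for the mean and a bar for the SD (n = 3). The PAX3-FKHR/GFP points lie above the GFP/+ points for Pax7 and below them for Pax3, Pax1, Pax9 and Pax6, and the GFP- points of Pax3, Pax7 and Pax1 lie far below both.

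Pax7 (gene 18509, chr4:139737059-139833530) encodes the paired-box factor that shares the central dermomyotome with Pax3 and later marks muscle satellite cells. Its brightest probe set, 1444596_at, read 8.03, 8.15 and 8.21 in PAX3-FKHR/GFP cells, 7.52, 7.34 and 7.53 in GFP/+ cells and 4.10, 4.02 and 4.19 in GFP- cells. The 3 groups did not overlap, and their order was PAX3-FKHR/GFP, GFP/+, GFP-, each step larger than the spread within groups. PAX3-FKHR/GFP exceeded GFP/+ cells by 0.67 ± 0.087 (adjusted p = 0.0022), with a 95% interval of 139 to 182% of the GFP/+ level. The other probe set, 1452510_at, read 5.17, 5.70 and 5.91 in PAX3-FKHR/GFP cells, 4.96, 4.94 and 5.01 in GFP/+ cells and 3.98, 3.85 and 3.60 in GFP- cells. Its groups did not overlap either, and PAX3-FKHR/GFP replicate 1 was the sample nearest to the GFP/+ cells. The difference from GFP/+ cells was 0.62 ± 0.16, close to that of the first probe set, but it was not called (adjusted p = 0.105). Without that replicate it was 0.83 and was called (adjusted p = 0.00638), while leaving out any 1 of the other 5 samples gave 0.46 to 0.64, not called (adjusted p 0.302 to 0.445).

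Pax3 (gene 18505, chr1:78101267-78197136) is the gene that carries both engineered alleles. Probes of Pax3 can also read the part of Pax3 held in the fusion transcript, and where the probes lie relative to that part was not determined, so its values do not separate normal from fusion transcripts. The brightest probe set, 1420389_at, read 8.25, 8.31 and 8.30 in PAX3-FKHR/GFP cells, 9.06, 9.29 and 9.24 in GFP/+ cells and 4.48, 4.82 and 4.20 in GFP- cells. All 3 groups were apart, with GFP/+ highest and GFP- lowest. PAX3-FKHR/GFP cells stood 0.91 ± 0.084 below GFP/+ cells (adjusted p = 0.000215). The probe set 1441743_at read 8.25, 8.50 and 8.61 in PAX3-FKHR/GFP cells, 9.16, 9.26 and 9.36 in GFP/+ cells and 2.89, 2.63 and 2.62 in GFP- cells. It gave the same order, and its fall with the fusion was by 0.81 (adjusted p = 0.00197). The probe set 1430335_a_at read 7.39 in all 3 PAX3-FKHR/GFP samples, 7.79, 8.34 and 8.41 in GFP/+ cells and 4.49, 3.82 and 3.99 in GFP- cells. Its fall was by 0.79 (adjusted p = 0.0164), and the 3 identical values, with an SD of 0, occur in PAX3-FKHR/GFP cells for 353 of the 45037 probe sets. The call was lost without any 1 of the PAX3-FKHR/GFP samples or without GFP/+ replicate 2 or 3 (adjusted p 0.0865 to 0.141).

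A further probe set, 1459148_at, has no gene in the platform annotation, but the study's supplementary annotation names it as Pax3. It was singled out after its values were seen and is not counted among the 17. It read 4.09, 4.02 and 3.87 in PAX3-FKHR/GFP cells, 5.14, 4.79 and 4.71 in GFP/+ cells and 3.82, 3.97 and 3.83 in GFP- cells. Here the PAX3-FKHR/GFP samples overlapped the GFP- samples, and the GFP/+ samples lay above both. All PAX3-FKHR/GFP and GFP- values were below the array medians of 4.63 to 4.68, where background limits a difference between these groups. PAX3-FKHR/GFP differed from GFP/+ cells by -0.89 ± 0.12 (adjusted p = 0.00335) and from GFP- cells by 0.12 ± 0.091 (adjusted p = 0.573), and GFP/+ exceeded GFP- cells by 1.01 ± 0.12 (adjusted p = 0.00031). Each of the 3 outcomes was the same when any single sample was left out, a check chosen after seeing the data.

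**Figure D2:**
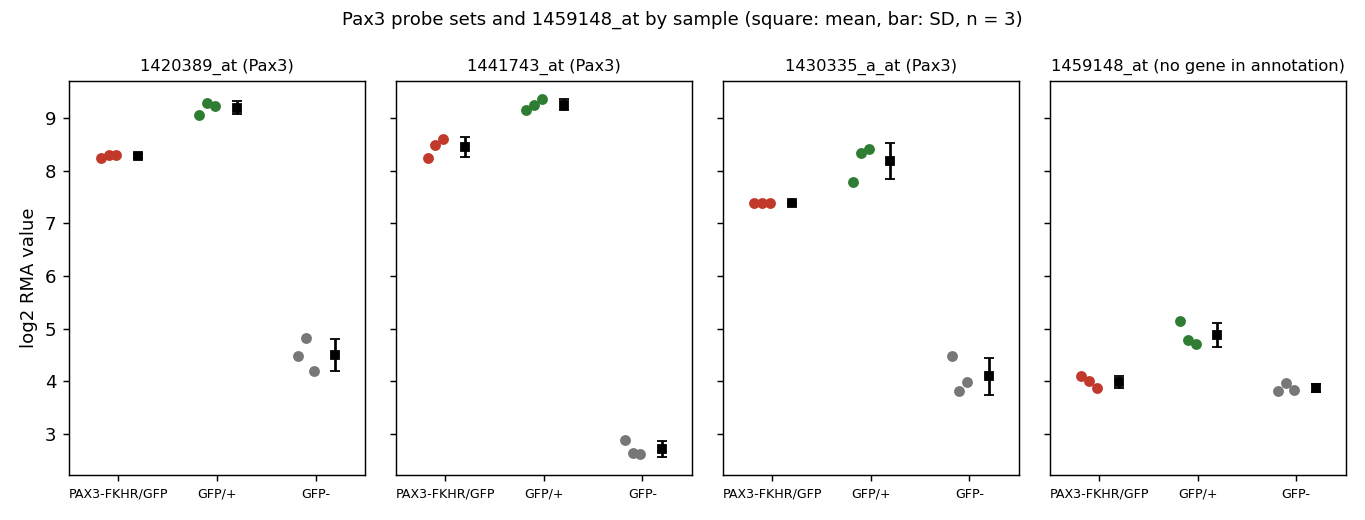
Log2 RMA value (vertical axis) of the 3 probe sets annotated to Pax3 and of 1459148_at, which the platform annotation leaves unnamed, in the 9 samples, as points by group with the mean and SD of n = 3. In the annotated probe sets the PAX3-FKHR/GFP samples sit below GFP/+ and far above GFP- samples. In 1459148_at they sit beside the GFP- samples, and both groups are below the array medians there.

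Whether Pax7 and Pax3 moved differently was tested on the difference of their brightest probe sets within each array. Pax7 minus Pax3 exceeded its GFP/+ value by 1.58 in PAX3-FKHR/GFP cells, and the values of the 2 groups did not overlap. Within this, Pax7 rose by 0.67, and Pax3, whose normal allele the design replaced, fell by 0.91. The direction was thus largely set by the design, and the difference does not show how the paralogues respond to PAX3-FKHR. The exact two-sided permutation test gave p = 0.1, the smallest that 3 against 3 samples allow, and 0.12 after Benjamini-Hochberg adjustment over 6 such tests.

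Pax1 (gene 18503, chr2:147361930-147375049), a sclerotome regulator, read 8.40, 8.45 and 8.55 in PAX3-FKHR/GFP cells, 8.92, 9.05 and 9.14 in GFP/+ cells and 5.93, 5.85 and 6.06 in GFP- cells in its brightest probe set, 1449359_at. The groups did not overlap, with both GFP-positive groups far above GFP- cells. The fall with PAX3-FKHR was by 0.57 ± 0.086 (adjusted p = 0.00598), with an interval of 59.1 to 76.9% of the GFP/+ level. Leaving out replicate 2 of PAX3-FKHR/GFP ended the call (adjusted p = 0.0709), and so did leaving out GFP/+ replicate 2 (0.0659) or 3 (0.0647). The dimmer probe set, 1443476_at, read 5.86, 5.53 and 5.59 in PAX3-FKHR/GFP cells, 6.08, 6.15 and 5.85 in GFP/+ cells and 4.63, 4.81 and 4.97 in GFP- cells. Here PAX3-FKHR/GFP replicate 1 overlapped the GFP/+ samples, and the difference of -0.37 ± 0.12 was not called (adjusted p = 0.227).

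Pax9 (gene 18511, chr12:56691693-56712824), which acts redundantly with Pax1 in the sclerotome, was closer between groups. Its brightest probe set, 1421247_at, read 6.52, 6.38 and 6.36 in PAX3-FKHR/GFP cells, 6.68, 6.55 and 6.83 in GFP/+ cells and 5.87, 6.05 and 6.05 in GFP- cells. The probe set 1442229_at read 5.09, 5.26 and 5.08 in PAX3-FKHR/GFP cells, 5.31, 5.37 and 5.46 in GFP/+ cells and 4.60, 4.44 and 4.52 in GFP- cells. In both, the PAX3-FKHR/GFP samples lay between the other groups without overlap. The differences from GFP/+ cells were -0.26 (adjusted p = 0.331) and -0.24 (adjusted p = 0.403), with intervals of 71.9 to 96.3% and 73.4 to 98.0% of the GFP/+ level, and neither was called. Pax1 minus Pax9 changed by -0.30 with PAX3-FKHR relative to GFP/+ cells, and the values of the groups did not overlap. The exact permutation p was again the smallest possible (0.1, adjusted 0.12). The third Pax9 probe set, 1421246_at, stayed at or below 3.45 in its group means and was not called in any comparison.

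Pax6 (gene 18508, chr2:105668896-105698410), a regulator of neural tube progenitors, gave unlike results between its probe sets. The brightest, 1419271_at, read 5.04, 4.98 and 5.13 in PAX3-FKHR/GFP cells, 5.90, 5.72 and 5.75 in GFP/+ cells and 5.97, 6.08 and 5.85 in GFP- cells. The PAX3-FKHR/GFP samples lay below all others, while the GFP/+ and GFP- samples overlapped. The fall against GFP/+ cells was by 0.74 ± 0.092 (adjusted p = 0.00164). The other 4 probe sets differed from GFP/+ cells by -0.16 to 0.03 and were not called. Of these, 1456342_at had means of 5.18 in PAX3-FKHR/GFP cells, 5.15 in GFP/+ cells and 4.98 in GFP- cells. Like 1419271_at, it was above the array median on all 9 arrays. The other 3 were below the array median throughout. The probe set of Pax6os1, an antisense transcript at the Pax6 start, had means of 3.13 in PAX3-FKHR/GFP, 3.29 in GFP/+ and 3.29 in GFP- cells and was not called in any comparison.

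Pax8 (gene 18510, chr2:24420551-24475599), a regulator of the intermediate mesoderm and kidney, was dim everywhere. Its probe set 1418208_at read 3.74, 3.54 and 3.75 in PAX3-FKHR/GFP cells, 3.61, 3.68 and 3.48 in GFP/+ cells and 4.21, 4.14 and 3.83 in GFP- cells. The 2 GFP-positive groups overlapped, and the difference of 0.09 ± 0.093 between them was not called (adjusted p = 0.846, interval 92.1 to 123% of the GFP/+ level). The other probe set, 1446561_at, had group means of 3.13, 3.21 and 3.10 in PAX3-FKHR/GFP, GFP/+ and GFP- cells.

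**Figure D3:**
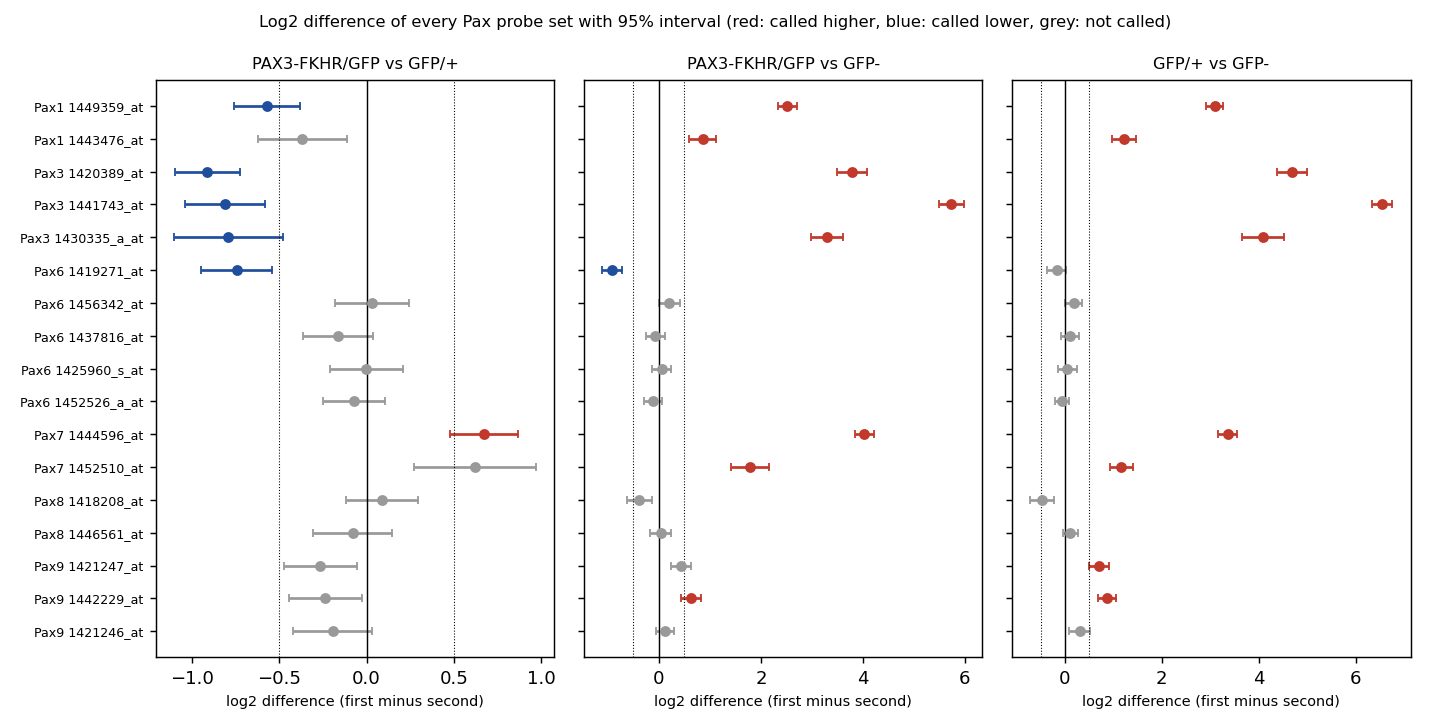
Log2 difference (horizontal axis, the first named group minus the second) of each of the 17 Pax probe sets in the 3 comparisons, with 95% intervals and dotted lines at the limits of 0.5 in either direction. The left panel holds 1 probe set called higher, of Pax7, and 5 called lower, among them all 3 of Pax3. The middle and right panels are led by the probe sets of Pax3, Pax7 and Pax1.

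The sort on GFP gave the second question, namely which Pax genes mark GFP-positive cells. GFP may outlast the activity of the Pax3 locus, whose GFP allele is active in the whole epithelial somite. The study proposes that this perhaps brought in ventral somite cells and with them sclerotome markers such as Pax1, which was not tested here. PAX3-FKHR/GFP and GFP/+ cells were each set against the same 3 GFP- samples, so these comparisons are not independent. In PAX3-FKHR/GFP against GFP- cells 8 of the 17 probe sets were higher and 1 lower, where 1.99% and 3.36% of all probe sets were called. By brightest probe set, 3 genes rose and 1 fell, against 2.63% and 5.2% of all genes. In GFP/+ against GFP- cells 9 probe sets were higher and 0 lower, where 1.42% and 3.24% of all probe sets were called. By brightest probe set 4 genes rose and 0 fell, against 1.92% and 5.05% of all genes. In both comparisons the other 8 probe sets were not called.

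Pax3 itself, on which the sort rests, was 13.8-fold higher in PAX3-FKHR/GFP and 25.9-fold higher in GFP/+ than in GFP- cells by its brightest probe set. These values check the sort and are no separate result. It was 53.3-fold and 93.4-fold by 1441743_at, and 9.82-fold and 17.0-fold by 1430335_a_at. In both of these all GFP- values lay below the array median, where background limits a fold, so the sizes are not compared between probe sets. Pax7 stood above GFP- cells 16.3-fold in PAX3-FKHR/GFP (4.03 ± 0.085, adjusted p = 1.38e-10) and 10.3-fold in GFP/+ cells (3.36 ± 0.085, adjusted p = 6.16e-09). Its dimmer probe set gave 3.44-fold and 2.24-fold. Pax1 stood above them 5.73-fold in PAX3-FKHR/GFP (2.52 ± 0.083, adjusted p = 4.49e-09) and 8.51-fold in GFP/+ cells (3.09 ± 0.081, adjusted p = 6.98e-09), and its dimmer probe set gave 1.81-fold and 2.33-fold. The dimmer probe sets of Pax7 and Pax1 thus kept the direction with smaller differences. All GFP- values of both Pax7 probe sets also lay below the array median. Background thus limits the Pax7 folds, whose sizes are not compared with those of Pax1.

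Pax9 exceeded its GFP- level less. In GFP/+ cells it rose by 0.70 ± 0.091 in 1421247_at (adjusted p = 0.000772) and by 0.86 ± 0.084 in 1442229_at (adjusted p = 9.28e-05). In PAX3-FKHR/GFP cells only 1442229_at was called (0.63 ± 0.092, adjusted p = 0.000949), since 1421247_at, at 0.43 ± 0.087 (adjusted p = 0.00824), stayed under the fold limit. Pax1 minus Pax9 was 2.09 higher in PAX3-FKHR/GFP and 2.39 higher in GFP/+ than in GFP- cells, with no overlap of the groups (exact permutation p = 0.1 and adjusted 0.12 in each). Pax7 minus Pax3 differed by 0.24 between PAX3-FKHR/GFP and GFP- cells (p = 0.4, adjusted 0.4) and by -1.34 between GFP/+ and GFP- cells (p = 0.1, adjusted 0.12), by the same exact permutation test. With the mean over all probe sets of each gene the first of these turned to -1.37 (exact permutation p = 0.1). The sort itself separates Pax3, and in GFP- cells both brightest probe sets had means below the array medians (Pax7 4.10, Pax3 4.50). Pax7 minus Pax3 against GFP- cells is thus limited by the design and by background.

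Pax6 fell by 0.92 in PAX3-FKHR/GFP against GFP- cells in 1419271_at (adjusted p = 4.13e-05), to 53.0% of the GFP- level. The other 4 probe sets were not called, among them 1456342_at at 0.21, and neither was the mean over all 5 (-0.17, adjusted p = 0.157). In GFP/+ against GFP- cells the difference was -0.17 ± 0.087 and was not called (adjusted p = 0.321). Pax8 differed by -0.38 ± 0.11 in PAX3-FKHR/GFP (adjusted p = 0.0632) and by -0.47 ± 0.11 in GFP/+ cells (adjusted p = 0.025), and neither was called, the second because it stayed under the fold limit. Without GFP- replicate 3, the lowest of the GFP- samples, Pax8 was called lower in both (adjusted p 0.0197 and 0.00833).

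Genes with which the Pax genes are known to act were counted from 6 lists, each gene read from its brightest probe set. The 13 Pax3 and Pax7 targets, several of which the study itself put forward from these samples, had a median difference of 0.53 between PAX3-FKHR/GFP and GFP/+ cells, where all genes had -0.00147. Of these targets 6 rose and 2 fell. Met, the receptor that migrating muscle progenitors need, rose by 1.70 ± 0.086, the FGF inhibitor Spry1 by 1.62 ± 0.088, the homeobox gene Lbx1 by 1.42 ± 0.093 and Itm2a, a membrane protein gene, by 1.37 ± 0.11. The forkhead genes Foxc1 and Foxc2 fell (-0.54 ± 0.097 and -0.56 ± 0.10), in the direction of Pax1 and Pax3. Against GFP- cells, 9 targets rose in PAX3-FKHR/GFP and 8 in GFP/+ cells, and 0 fell in either, with medians of 1.26 and 0.68, where those of all genes were 0.00717 and 0.0078. The largest difference was that of Dmrt2, a dermomyotome transcription factor gene, at 6.17 ± 0.096 and 5.64 ± 0.11. The myogenic determination gene Myf5 came next at 6.14 ± 0.11 and 5.26 ± 0.10.

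Among 11 measured Pax3 partners and dermomyotome regulators, 1 rose and 2 fell with PAX3-FKHR, and the median was 0.05. Tcf15, which encodes the paraxial mesoderm factor paraxis, rose by 0.92 ± 0.096, and the fallen genes were Dach1, a cofactor of the Eya proteins (-0.69 ± 0.097), and Sim1, a lateral dermomyotome marker (-0.66 ± 0.085). Against GFP- cells 6 rose and 1 fell in PAX3-FKHR/GFP and 7 rose and 1 fell in GFP/+ cells, with medians of 0.96 and 1.39. The fallen gene was Dach2 in both. Of 8 sclerotome genes measured besides Pax1 and Pax9, only Uncx, which encodes a homeodomain factor of the caudal sclerotome, was called with PAX3-FKHR (0.73 ± 0.093), and the list's median was -0.22. Against GFP- cells Uncx was again the only one called in PAX3-FKHR/GFP cells (4.08 ± 0.10), while Uncx (3.34 ± 0.077), Col2a1 (0.87 ± 0.072) and Sox9 (0.58 ± 0.11) were called in GFP/+ cells. The medians were 0.02 and 0.10.

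Markers of other cells in which Pax genes act were measured beside these results. The mean log2 value of the 17 neural tube genes lay between 5.97 and 6.12 in PAX3-FKHR/GFP, 5.80 and 5.84 in GFP/+ and 6.63 and 6.65 in GFP- samples. With PAX3-FKHR 3 of them rose and 1 fell, with a median of 0.04, while Pax6 fell in 1 of its 5 probe sets. Dbx1, a progenitor gene of the intermediate neural tube, rose by 2.38 ± 0.091, and the proneural genes Neurog1 and Neurog2 moved apart (1.11 ± 0.078 and -0.78 ± 0.13). The LIM homeodomain gene Isl1 rose by 0.805 ± 0.098. Against GFP- cells Dbx1 and Neurog1 rose and 9 genes fell in PAX3-FKHR/GFP cells, while Dbx1 alone rose and 10 fell in GFP/+ cells, with medians of -0.92 and -0.87. The 10 neural crest genes averaged 8.93 to 9.14 in PAX3-FKHR/GFP, 8.79 to 8.86 in GFP/+ and 7.49 to 7.59 in GFP- samples, and all 10 were above the array median in every GFP-positive sample. With PAX3-FKHR 1 of them rose, the gene Tfap2b (0.59 ± 0.084), and 0 fell, with a median of 0.19. Against GFP- cells 7 rose in PAX3-FKHR/GFP and 6 in GFP/+ cells, with medians of 0.82 and 0.67, and the crest and glial factor Sox10 was higher by 3.57 ± 0.094 and 3.43 ± 0.089. The 8 intermediate mesoderm genes averaged 5.32 to 5.51 in PAX3-FKHR/GFP, 5.43 to 5.50 in GFP/+ and 6.61 to 6.70 in GFP- samples. With PAX3-FKHR 0 of them were called, with a median of -0.04. Against GFP- cells the cadherin gene Cdh6 rose and 5 fell in each GFP-positive group, with medians of -1.61 and -1.68, and Osr1, an early kidney and lateral plate factor, had the largest fall (-3.18 ± 0.12 and -2.80 ± 0.10). Pax3 and Pax7 are themselves active in neural crest, and the part of these cells in the Pax values was not tested.

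**Figure D4:**
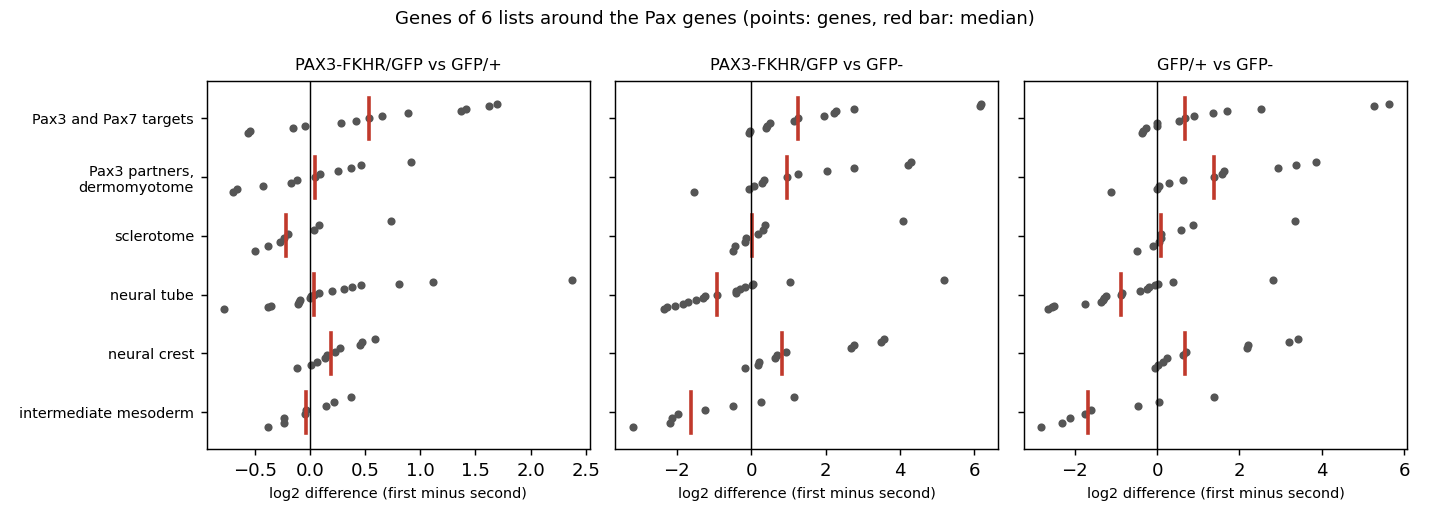
Log2 difference (horizontal axis, the first named group minus the second) of each measured gene of the 6 lists, as points, with the list's median as a red bar, in the 3 comparisons. With PAX3-FKHR the median of the Pax3 and Pax7 targets lies at 0.53 and the other medians between -0.22 and 0.19, and the neural tube and intermediate mesoderm medians lie below 0 against GFP- cells.

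The genes whose profile over the 9 arrays was nearest to each Pax gene were found by the root mean square difference of log2 values after each gene was centred on its own mean. Nearest to Pax7 were Uncx (0.109), Tcf15 (0.172) and Meox2 (0.245), all of them somite transcription factor genes with their highest mean in PAX3-FKHR/GFP cells. For Meox2 the difference from GFP/+ cells, 0.38, was not called (adjusted p = 0.0744). Nearest to Pax1 were Meox1 (0.194), Gm2102 (0.283) and Foxc2 (0.295), which like Pax1 had their highest mean in GFP/+ cells. For Meox1 the difference between the GFP-positive groups, -0.17, was not called (adjusted p = 0.65). Nearest to Pax3 were Myog, Myh3 and Tnnc2, a muscle differentiation factor gene and a pair of sarcomere genes, at larger distances of 0.316, 0.467 and 0.532. They stood 3.43, 3.46 and 2.97 above GFP- cells in PAX3-FKHR/GFP and 4.66, 5.41 and 5.02 in GFP/+ cells, whereas Pax3 stood 3.78 and 4.70 above. Nearest to Pax6 were C130071C03Rik (0.11), Epha3 (0.119) and Notum (0.127), and nearest to Pax9 were Chrng (0.0936), Tfpi (0.104) and Man1c1 (0.107). For both, the differences between groups are small, so short distances are easily reached. The group means of Pax8 spanned 0.47, below the 0.5 asked of a gene for this search. The distances are descriptions over 9 arrays in 3 groups and carry no test.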

How the data were processed

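The authors deposited log2 expression values from Affymetrix Mouse Genome arrays, made with RMA (background correction, quantile normalization and summary of each probe set) from two-cycle 3′ amplified RNA of GFP-sorted cells. Which arrays were normalized together is not given in the sources used here. Such normalization hides any change common to all transcripts of a group. The study's absent-call filter was not applied. The labels call the samples somites, although their treatment text speaks of forelimb buds, and samples were taken as somites. The methods call the 3 samples of a group biological replicates.

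Of 45101 probe sets 64 controls were left out. The annotation gave 1 symbol to 34945, several to 932 and none to 9160. Each comparison was a limma 3.58.1 fit (R 4.3.3, lmFit and eBayes with an intensity trend) of its 6 samples, two-sided, with Benjamini-Hochberg adjustment over 45037 probe sets. Paralogue differences were tested by exact permutation. Every Pax probe set is named. Of each list at most 4 called genes, those with the largest difference, are named per comparison, and the 3 most similar genes per Pax gene. Foxc1, Foxc2, Dach2, Neurog1 and Cdh6 are also named where they make up a small count, chosen after their values were seen. The members and lists were chosen with earlier results of these data known. Alternatives were all 9 samples in 1 fit, no trend, the study's local pooled error test, a filter on low values, re-centred arrays, a 1.5-fold limit, a replicate block, the mean over probe sets and leaving out each sample. Gene positions and promoter windows are those of RefSeq on GRCm38.p6, with promoter windows of chromosome 18 left out.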

Additional observations from a re-analysis of the deposited data

How the results depend on the processing

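With the mean over all probe sets of a gene in place of its brightest, 2 in place of 4 Pax genes were called between PAX3-FKHR/GFP and GFP/+ cells, 1 higher and 1 lower. Pax7 and Pax3 kept their calls, Pax1 (-0.47, adjusted p = 0.00237) stayed under the fold limit and Pax6 (-0.19, adjusted p = 0.301) was not called. Pax6 was also not called against GFP- cells (-0.17, adjusted p = 0.157). The same setting turned Pax7 minus Pax3 between PAX3-FKHR/GFP and GFP- cells to -1.37 (exact permutation p = 0.1), against 0.24 by brightest probe set. With the mean the Pax7 difference went to 2.91, against 4.03 by its brightest probe set, and that of Pax3 to 4.27, against 3.78. At a 1.5-fold limit Pax1 was not called against GFP/+ cells. The dimmer Pax7 probe set was called with all 9 samples in 1 fit (adjusted p = 0.0437), with the local pooled error test (0.000423) and with the filter on low values, which leaves fewer probe sets to adjust over (0.0484). Pax8 was called lower in GFP/+ than in GFP- cells with the local pooled error test (-0.54, adjusted p = 0.0012). Leaving out each sample gave 4 to 6 called probe sets in PAX3-FKHR/GFP against GFP/+ cells and 9 to 10 in each comparison with GFP- cells. Pax7 minus Pax3 then ranged from 1.47 to 1.68 with PAX3-FKHR against GFP/+, from 0.04 to 0.44 against GFP- and from -1.54 to -1.15 in GFP/+ against GFP- cells. Pax1 minus Pax9 ranged from -0.38 to -0.22, from 2.01 to 2.17 and from 2.31 to 2.45 in the same order. Deviations of same-numbered samples correlated at -0.0957 to 0.105, so no pairing by replicate number was detected, though a weak one could be missed. With the replicate block 6, 9 and 9 probe sets were called in PAX3-FKHR/GFP against GFP/+, PAX3-FKHR/GFP against GFP- and GFP/+ against GFP- cells, as without it, and the paralogue differences, 1.58, 0.24 and -1.34 for Pax7 minus Pax3 and -0.30, 2.09 and 2.39 for Pax1 minus Pax9, do not change by construction. Of 662 recomputed differences of single probe sets and genes, 643 kept their call or stayed uncalled, 11 of them uncalled differences near 0 whose sign changed, while 7 became called and 12 lost their call. With 3 arrays a group, dim probe sets such as those of Pax8 are measured with little signal over the rest of the array.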
